A study of Mus musculus with 6 samples.

Results

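The 10 genes described here encode receptors, bridging ligands and signalling proteins with which phagocytes recognise and engulf dying cells and synaptic terminals. They were chosen by name: the TAM receptors Mertk, Axl and Tyro3, their ligands Gas6 and Pros1, the opsonin Mfge8, the receptors Cd36 and Megf10, and Elmo1 and Dock2, which form a Rac activating complex. All 10 had a row in the deposited table of 26789 mouse genes, and all 10 were among the 18007 that entered the comparison by averaging 10 or more normalized counts. The values were gene-level normalized counts from RNA-seq of microglia, the resident macrophages of the brain, from the rostral nucleus of the solitary tract (NST), the first central relay of taste, at postnatal day 15. Controls (C57BL/6 in the study's description of its control animals) came from dams on a control diet, and E3–E12 diet mice came from dams fed a low sodium diet over those embryonic days and a standard diet from then on. Each group had 3 libraries. By the study's methods each library was a pool of littermates from 1 litter. The study used male and female mice throughout, and the sexes in each pool were not stated. Cells were selected with magnetic beads against CD11b, a surface protein of all myeloid cells, so border-associated macrophages and blood myeloid cells could pass the selection. By flow cytometry, the study found that the large majority of live cells in the selected fraction carried CD11b. The series description names laser microdissection instead of bead selection, so how the cells were obtained is uncertain. Where values of single libraries follow, they are given in the order of replicates 1, 2 and 3. In figures the E3–E12 diet group carries its label of low sodium diet.

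Apoptotic cells, and synaptic terminals marked for removal, expose phosphatidylserine on their outer membrane. GAS6 and protein S (the product of Pros1) bind this lipid once their glutamate residues have been gamma-carboxylated, and bridge it to the receptor tyrosine kinases TYRO3, AXL and MERTK, whose initials give the family its name. GAS6 binds each of these receptors, while protein S acts through TYRO3 and MERTK. MFG-E8 (the product of Mfge8) does the same for integrins, and CD36 and MEGF10 are further engulfment receptors. These inputs converge on RAC GTPases, which ELMO and DOCK proteins activate to drive the actin cup around the target. MERTK is the TAM receptor best known from resting microglia, and MEGF10 is best known as an engulfment receptor of astrocytes.

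The libraries differed in composition within each diet group. Totals ran from 9407141 to 17204618 normalized counts, and between 3459 and 10640 genes were listed at 0. The summed normalized counts of 12 microglial markers made up 1.15%, 3.22% and 2.35% of the total among controls, and 1.17%, 2.34% and 2.45% after the E3–E12 diet. None of the 12 was at 0 in any library, so the labelled cell type was present throughout. Control replicate 2 stood apart, with the most genes at 0, the highest sum of microglial markers and the lowest mean log2 level of the astrocyte, endothelial, mural and neuronal markers. In such bulk samples fewer cells of a type and less RNA per cell cannot be told apart.

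Mertk was the most abundant TAM receptor in 6 of 6 libraries per kilobase of exon, and its level did not differ between diets beyond the spread of the litters. Mertk (chr2:128698956-128802894, plus strand, GRCm38) had 4952, 10297 and 8039 normalized counts among controls, and 3107, 8883 and 8112 after the E3–E12 diet. The lowest library of each group was replicate 1, and the groups overlapped almost completely. The means were 7762 ± 2683 in controls and 6701 ± 3136 in E3–E12 diet mice (SD, n = 3 libraries each), and the log2 fold change was -0.29 (standard error, SE, 0.68) on the log2(normalized count + 1) scale. Without E3–E12 diet replicate 1 the log2 fold change of Mertk was 0.19, so its sign rested on that library.

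Axl, the TAM receptor that inflammatory signals are known to raise, varied more between litters than Mertk did. Axl (chr7:25757273-25788705, minus strand) had 997, 5331 and 898 normalized counts among controls, and 2737, 822 and 2560.1 after the E3–E12 diet. Control replicate 2 was the highest library, and the other controls lay below the upper pair of E3–E12 diet libraries. The log2 fold change was 0.090 (SE 0.93), and its 95% confidence interval of -2.14 to 2.32 spanned more than a 4-fold change either way. The ratio of the group means went the other way (2039.8 ± 1058 in E3–E12 diet mice against 2409 ± 2531 in controls, a log2 ratio of -0.24). Control replicate 2, where Axl was highest, also had the highest sum of 8 border-associated macrophage markers (21066 normalized counts, against 6021 and 8313 in the other controls and 5656 to 9849 in E3–E12 diet mice, with 1 of the 7 tested higher in E3–E12 diet mice and none at 0 in a library). In the E3–E12 diet group these sums were 5656, 9385 and 9849, lowest in replicate 1, where Axl was highest of that group. Axl was lowest in replicate 2. Of 8 monocyte and neutrophil markers, 7 had a row, and their sum was also highest in control replicate 2 (2652 normalized counts, against 541 and 419 in the other controls and 567 to 687 in E3–E12 diet mice, with 1 of the 5 tested higher in E3–E12 diet mice and Plac8 and Ly6g at 0 in at least 1 library). The sum of 12 microglial markers was likewise highest in control replicate 2 (553200 normalized counts, against 109670 to 359010 in the other libraries). Per 1000 microglial marker counts, Axl had 8.963, 9.637 and 3.212 among controls, and 24.96, 3.144 and 7.131 after the E3–E12 diet. On that scale Axl was highest in E3–E12 diet replicate 1. The part of border-associated macrophages, monocytes and neutrophils in the levels of Axl, and of Pros1, which also peaked in control replicate 2, was not tested.

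Tyro3, the family member best known from neurons, had a low level, at percentile 20.2 of the tested genes per kilobase of exon. Tyro3 (chr2:119797733-119818104, plus strand) had 184, 18.2 and 69.5 normalized counts among controls, and 122, 48.0 and 49.6 after the E3–E12 diet. Replicate 1 was the highest of both groups, and the controls held both the highest and the lowest value. A log2 fold change of 0.096 (SE 0.96) became -0.76 without control replicate 2 and -0.38 after quantile normalization. The sum of 8 neuronal markers was likewise highest in control replicate 1 and E3–E12 diet replicate 1 (1858 and 2023 normalized counts) and lowest in control replicate 2 (690), with 5 of 8 higher in E3–E12 diet mice and Syt1, Rbfox3, Slc17a6 and Stmn2 listed at 0 in at least 1 library. Mean log2 levels of the astrocyte, endothelial and mural markers were also highest in the replicate 1 libraries and lowest in control replicate 2. Whether RNA of neurons or of these other cells carried the Tyro3 signal was not tested.

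The TAM receptors are paralogs, so their kinase sequences show how far short reads could be told apart. In GENCODE M21 on GRCm38 their coding sequences were identical at 63.9% (Mertk and Axl), 63.8% (Mertk and Tyro3) and 63.5% (Axl and Tyro3) of aligned bases. A stretch of 44 coding bases from the tyrosine kinase domain, around the longest run shared by Mertk and Tyro3, is printed with its closest match in Axl to show that differences remain within a length shorter than a read. It spans the junction of exons 17 and 18 in Mertk and Tyro3 and of exons 18 and 19 in Axl, at chr2:128793103-128794482 (Mertk), chr7:25760847-25761407 (Axl) and chr2:119812960-119813203 (Tyro3), where the intron between the exons is left out. Capitals mark the 32 of 44 bases that all 3 receptors share.
Mertk: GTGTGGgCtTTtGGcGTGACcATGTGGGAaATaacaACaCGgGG
Axl: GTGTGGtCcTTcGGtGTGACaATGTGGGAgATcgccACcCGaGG
Tyro3: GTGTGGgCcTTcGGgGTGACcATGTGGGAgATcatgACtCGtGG
Axl shared 33 and Tyro3 35 of the 44 bases with Mertk. The longest run of identical bases between any pair of them was 14, and none of the 50-base windows of their exons occurred in another annotated gene. At a read length of 50 bp the exons of the 3 receptors were therefore distinct from one another.

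Both TAM ligands were expressed at levels comparable to Axl, and neither differed between diets by the test. Gas6 (chr8:13465374-13494490, minus strand) had 926, 1872 and 1874 normalized counts among controls, and 895, 1061 and 1213 after the E3–E12 diet. Every E3–E12 diet library lay below the upper pair of controls, but control replicate 1 lay within the E3–E12 diet range. Gas6 had the smallest range of the 10 genes over the 6 libraries (2.1-fold), and its residual spread was lower than that of all but 9.32% of genes tested. The means were 1558 ± 547 and 1056 ± 159 normalized counts (SD, n = 3 libraries each), with a log2 fold change of -0.50 (SE 0.59) and an interval of -1.90 to 0.90. With each library left out in turn it stayed below 0, between -0.84 and -0.33. The exon bases of Gas6 overlap those of Tmem255b on the opposite strand over 34 bases, 1.33% of the gene.

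Pros1, which encodes protein S, an anticoagulant that is also a TAM ligand, rested on 1 library. Pros1 (chr16:62854307-62929346, plus strand) had 558, 8289 and 1731 normalized counts among controls, and 552, 1862 and 1501 after the E3–E12 diet. Control replicate 2 was more than 4 times the next highest library, and replicate 1 was the lowest of both groups. The log2 fold change of -0.79 had a standard error of 1.10, and it was 0.23 without control replicate 2. Gas6 and Pros1 were identical at 61.8% of aligned coding bases with no shared run beyond 12 bases. Per kilobase, Gas6 exceeded Pros1 in 4 of 6 libraries. The ratio of Gas6 to Pros1 was 2.66, 0.362 and 1.74 among controls, and 2.60, 0.914 and 1.30 after the E3–E12 diet (exact permutation test, two-sided, p = 0.9).

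Mfge8 encodes the secreted opsonin that bridges phosphatidylserine to alpha v integrins. Mfge8 (chr7:79133768-79149060, minus strand) had 266, 236 and 259 normalized counts among controls, and 659, 264 and 294 after the E3–E12 diet. The controls lay within a 1.13-fold range, the narrowest within-group range of any of the 10 genes, and only control replicate 1 exceeded an E3–E12 diet library. Between diets the log2 fold change was 0.55 (SE 0.61), and 0.13 without E3–E12 diet replicate 1, which held the highest value. That library also had the highest sums of astrocyte, mural and fibroblast, and choroid plexus markers (13078, 16986 and 58025 normalized counts), and their part in the Mfge8 level was not tested. For the mural and fibroblast list, with Kcnj8 at 0 in at least 1 library, the sums ran from 1652 to 15217 in controls and from 5802 to 16986 in E3–E12 diet mice, with 5 of 8 higher. The choroid plexus list ran from 778 to 30267 and from 1240.4 to 58025, with 2 of 6 higher and Folr1 and Clic6 at 0 in at least 1 library.

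Cd36, a scavenger receptor for oxidised lipids and apoptotic cells, was low in both replicate 1 libraries. Cd36 (chr5:17781690-17888801, minus strand) had 16.2, 68.6 and 109 normalized counts among controls, and 22.5, 168 and 215 after the E3–E12 diet. The values spread 13.3-fold over the libraries and more than 6-fold within each diet. The log2 fold change was 0.90 (SE 1.13) and an interval of -1.80 to 3.60, positive with each library left out in turn (0.12 to 1.91).

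Megf10 was the single gene of the 10 whose groups did not overlap, at a low level (percentile 17.3 of the tested genes per kilobase of exon). Megf10 (chr18:57133090-57297467, plus strand) had 51.7, 9.02 and 48.3 normalized counts among controls, and 59.6, 284 and 77.3 after the E3–E12 diet. The lowest E3–E12 diet library exceeded the highest control by a small margin, and the extremes were control replicate 2 and E3–E12 diet replicate 2. The means were 36.4 ± 23.7 and 140 ± 125 normalized counts (SD, n = 3 libraries each), with a log2 fold change of 1.90 (SE 0.96) and an interval of -0.40 to 4.19. The exact permutation test, two-sided, gave p = 0.1, the smallest that 3 libraries against 3 allow, and limma gave an adjusted p of 0.999. Of the 18007 genes tested, 2.99% lay wholly above the controls, 2.91% wholly below and 5.90% did not overlap in either direction, so 1 of 10 is not a result about these genes. For Megf10 the log2 fold change was 1.12 when control replicate 2 was left out and 1.22 when E3–E12 diet replicate 2 was, and it stayed above 0 with each of the other libraries left out. All 10 of 10 astrocyte markers also had a higher mean log2 level in E3–E12 diet mice, with sums of 2134 to 10765 normalized counts in controls and 5446 to 13078 in E3–E12 diet mice. The sum was lowest in control replicate 2, as Megf10 was, but was 5475 in E3–E12 diet replicate 2, where Megf10 was highest. The highest sums were those of E3–E12 diet replicate 1 and control replicate 1 (13078 and 10765), where Megf10 had 59.6 and 51.7 normalized counts. Gfap, Aldh1l1 and Gjb6 were listed at 0 in at least 1 library, and Aldoc alone of these 10 did not overlap between groups. The part of astrocyte RNA in the Megf10 level was not tested.

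The Rac activating pair was among the more abundant of the 10 and had similar means in both diets. Elmo1 (chr13:20090596-20608353, plus strand), the scaffold that links engulfment receptors to DOCK proteins, had 5075, 12551 and 8426 normalized counts among controls, and 4848, 6024 and 11392 after the E3–E12 diet. Dock2 (chr11:34226815-34783892, minus strand), the exchange factor of haematopoietic cells that loads RAC with GTP, had 3156, 4465 and 4905 normalized counts among controls, and 1757, 4498 and 4767 after the E3–E12 diet. For both genes replicate 1 was the lowest library of each diet. The log2 fold changes were -0.23 (SE 0.66) for Elmo1 and -0.29 (SE 0.65) for Dock2. Without E3–E12 diet replicate 1 they were 0.028 and 0.17, and Elmo1 was also positive, at 0.084, without control replicate 2. The per-kilobase ratio of Elmo1 to Dock2 stayed between 1.22 and 2.55 in the 6 libraries. Of the 50-base windows of their exons, 2.93% (Elmo1) and 3.61% (Dock2) also occurred in another annotated gene, mostly the opposite-strand genes Gm32036 and 4930403D09Rik, and reads in these windows cannot be assigned without strand.

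**Figure D1:**
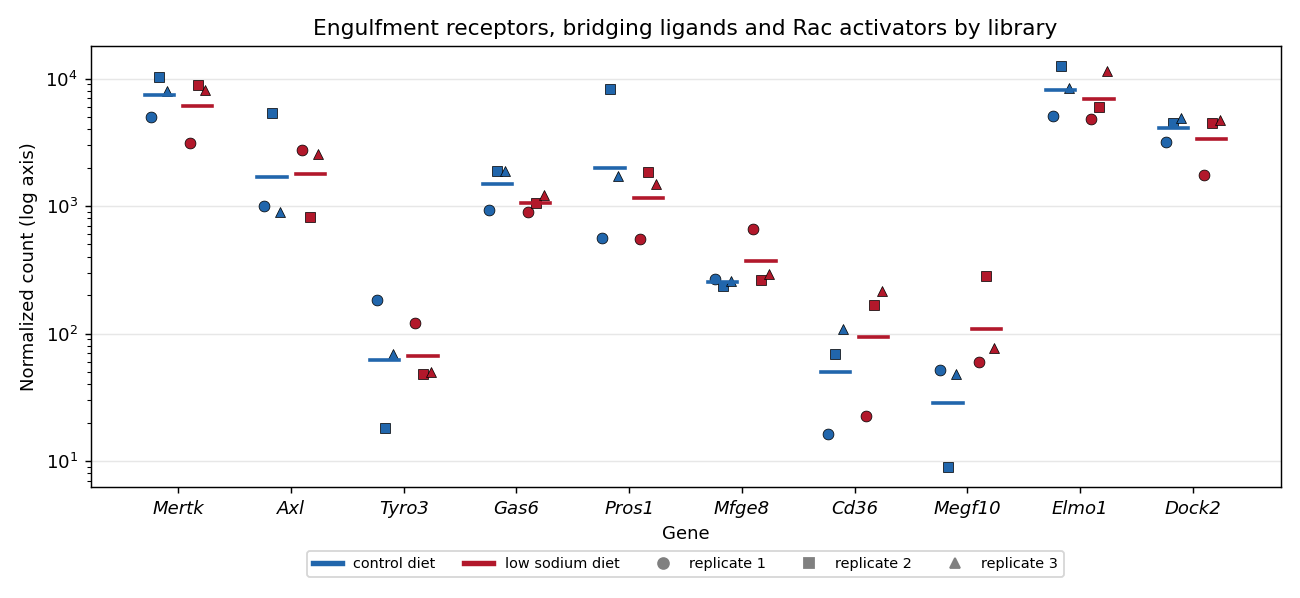
Normalized counts of the 10 genes (log axis) in each library, with controls in blue, low sodium (E3–E12) diet in red, replicate numbers as symbols and the geometric mean of 3 libraries as a bar. Only Megf10 has groups that do not overlap, from 9.02 to 51.7 in controls and 59.6 to 284 in E3–E12 diet mice. Of all genes tested, 5.90% did not overlap either.

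Normalized to exon length, the genes fell into an abundant and a scarce set. The length was that of all annotated exons of a gene merged, and which transcripts were expressed was not determined. Mertk had a mean level over the 6 libraries of 1668 normalized counts per kilobase, rank 208 of the 17869 tested genes with a length. It was followed by Elmo1 (640.1), Pros1 (591), Gas6 (513), Axl (442.0) and Dock2 (344), all above the 90th percentile of these genes. Mfge8 had 70.3 normalized counts per kilobase, Cd36 27.8, Tyro3 13.2 and Megf10 11.5, at percentiles 63.6, 38.0, 20.2 and 17.3. Of the 9 pairs of neighbours in this order, only Mertk over Elmo1 (2.60-fold, 6 of 6 libraries) and Dock2 over Mfge8 (4.97-fold, 6 of 6 libraries) were apart by more than the SD of their log2 ratio. Before division by length the mean of Elmo1 was the higher (8053 normalized counts, against 7231 for Mertk). The order of Mertk and Elmo1 therefore rests on the lengths used (4.336 kb for Mertk and 12.58 kb for Elmo1). Elmo1 lay above Dock2, and Mfge8 above Cd36, Tyro3 and Megf10, in 6 of 6 libraries, while the places of Pros1, Gas6 and Axl, and the order of Cd36, Tyro3 and Megf10, changed from library to library. Pros1 ranked above Gas6 by its mean but exceeded it in only 2 of 6 libraries.

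The balance of the receptors varied between litters more than between diets. The per-kilobase ratio of Axl to Mertk was 0.173, 0.446 and 0.0962 among controls, and 0.759, 0.0797 and 0.272 after the E3–E12 diet (exact permutation test, two-sided, p = 0.8). Axl therefore stayed below Mertk in every library, closest to it in E3–E12 diet replicate 1. Tyro3 was between 0.00124 and 0.0275 of Mertk. The ratio of Mertk to Gas6 was 3.14, 3.23 and 2.52 among controls, and 2.04, 4.92 and 3.93 after the E3–E12 diet, with overlapping groups (exact permutation test, two-sided, p = 0.7). The ratio of Mfge8 to Gas6 was 0.0998 ± 0.0487 in controls and 0.222 ± 0.154 in E3–E12 diet mice (SD, n = 3 libraries each, exact permutation p = 0.3). In all 6 such ratios were tested, and none reached the smallest p of 0.1 that the design allows (p between 0.3 and 1, exact permutation test, each 1 after Benjamini-Hochberg adjustment over the 6).

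Set against the microglial marker sum of the same library, the log2 differences between diets of Mertk, Elmo1 and Dock2 were closer to 0 (-0.044, 0.017 and -0.045). Csf1r was the largest marker of this sum in every library, for instance 280071 of 553200 normalized counts in control replicate 2. The values of Dock2 spread wider over the libraries (3.51-fold, against 2.79-fold for its normalized counts). Those of Axl, Tyro3, Gas6, Mfge8 and Megf10 also spread wider, and those of Mertk, Pros1, Cd36 and Elmo1 less. Mertk had 44.5, 18.6 and 28.8 counts per 1000 microglial marker counts among controls, and 28.3, 34.0 and 22.6 after the E3–E12 diet. Elmo1 had 45.6, 22.7 and 30.1 among controls, and 44.2, 23.03 and 31.7 after the E3–E12 diet (exact permutation test, two-sided, p = 0.9). Its 6 values spanned a 2.01-fold range, against 2.59-fold for the normalized counts. The tested log2 fold change was below 0 for all 12 of 12 microglial markers, none without overlap between groups. On the same scale Pros1 was still highest in control replicate 2 (14.98 against 4.18 to 7.12 elsewhere), Tyro3 spread 50.2-fold and Megf10 66.7-fold. Megf10 overlapped between groups on this scale, with 0.465, 0.0163 and 0.173 among controls, and 0.543, 1.09 and 0.215 after the E3–E12 diet. None of the 10 genes separated the diets once expressed this way.

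**Figure D2:**
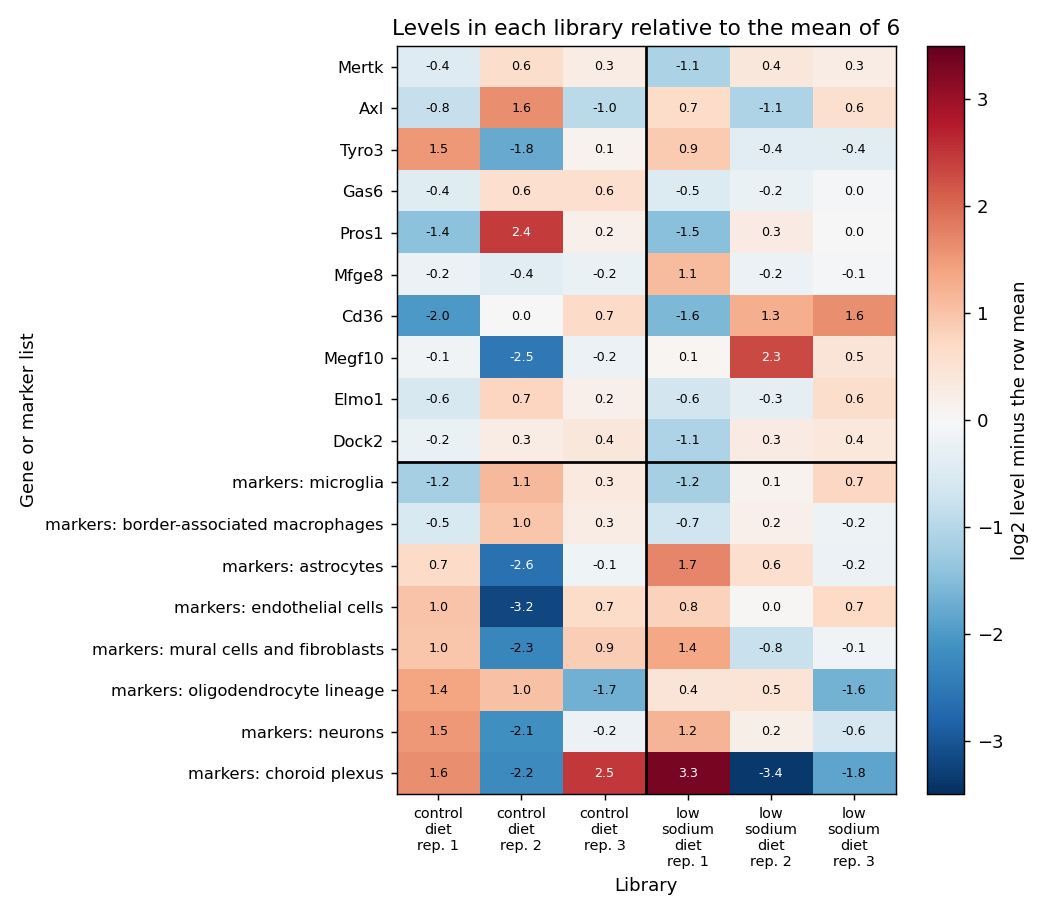
Each cell gives a library's log2(normalized count + 1) minus the mean of the 6 libraries, for the 10 genes (above the line) and for the mean log2 level of the markers of 8 cell types (below the line). Tyro3 and the neuronal, astrocyte, endothelial and mural markers are highest in the replicate 1 libraries and lowest in control replicate 2. Pros1 is highest where the microglial and border-associated macrophage markers are highest.

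The diet comparison over all genes tested called none of the 10. In limma, two-sided and with Benjamini-Hochberg adjustment, 0 of 10 passed an adjusted p of 0.1, where 0.00% of all 18007 genes did. None had an unadjusted p under 0.05, against 1.82% of all genes. An absolute log2 fold change above 1 was reached by Megf10 alone, and by 28.9% of all genes. The log2 fold change was above 0 for 5 genes (Axl, Tyro3, Mfge8, Cd36 and Megf10) and below 0 for 5 (Mertk, Gas6, Pros1, Elmo1 and Dock2), against 54.4% above 0 among all genes. Their median was -0.070, with a median of 0.087 for all genes tested. Fold changes were estimated with little precision. The 95% confidence intervals of the E3–E12 diet to control ratio ran from 0.265 to 2.52 for Mertk, from 0.268 to 1.87 for Gas6 and from 0.28 to 2.38 for Dock2. For Pros1 the interval was 0.0936 to 3.57 and for Megf10 0.76 to 18.3, so a doubling of 9 of the 10 genes was within the interval, and for Gas6 it was not. The limma p-values rest on the spread between these libraries, each from a separate litter by the study's methods. For each gene limma draws that spread toward a value shared over all genes tested. Its standard errors, intervals and p-values are therefore moderated, not the gene's own spread alone. By DESeq2 at the same adjusted threshold, the study listed genes as up- or downregulated, and none of those was among these 10.

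**Figure D3:**
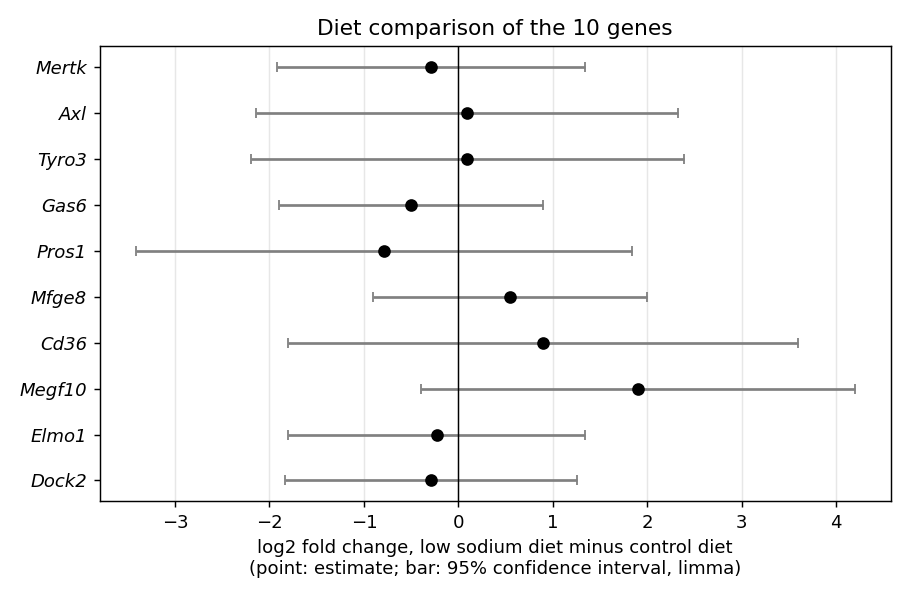
Log2 fold change of each gene, low sodium (E3–E12) diet minus control diet, with the limma 95% confidence interval as a bar. All 10 intervals cross 0, from the narrowest for Gas6 (-1.90 to 0.90) to the widest for Cd36 (-1.80 to 3.60).

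The wider engulfment pathway was read from a list of 67 genes in 7 roles, of which 65 had a row and 62 entered the comparison. None passed the adjusted threshold, where 0.00% of all genes tested did. The log2 fold change was above 0 for 28 and below 0 for 34, beside 54.4% above 0 among all genes tested. The median was -0.047, with 0.087 for all genes tested. Anxa1 alone had an unadjusted p under 0.05 (1 of 62, beside 1.82% of all genes tested), so that count is not a result about these genes. Xkr8 was higher, and Anxa1, Elmo3 and Rab5a were lower, without overlap between groups (4 of 62, beside 5.90% of all genes tested).

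Among the other phosphatidylserine and apoptotic cell receptors 4 of 14 had a log2 fold change above 0 (54.4% of all genes tested), with a median of -0.44. Adgrb1, the receptor BAI1 that signals through ELMO and DOCK proteins, had 219, 0 and 24.2 normalized counts among controls and was listed at 0 in all 3 E3–E12 diet libraries, so its difference rested on the controls' replicates 1 and 3. Its log2 fold change was -4.14 (SE 1.83, limma adjusted p = 0.999). The study, by DESeq2 at an adjusted p under 0.1, listed Adgrb1 as downregulated in E3–E12 diet mice. Lrp1, an endocytic receptor for calreticulin-tagged cells, had 27812.5 ± 17446 normalized counts in controls and 20182 ± 11452.5 in E3–E12 diet mice (SD, n = 3 libraries each). The scavenger receptor Stab1 was carried by control replicate 2, at 43256 normalized counts where the other 5 libraries had 2453 to 9864. Itgav and Itgb5, the subunits of the integrin that binds MFG-E8, had log2 fold changes of -0.46 and -0.14 with standard errors of 0.74 and 0.84. Timd4, a phosphatidylserine receptor of tissue macrophages, was low in every library, between 5.95 and 68.0 normalized counts.

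Of the other bridging ligands and opsonins, 3 of 8 had a log2 fold change above 0 (54.4% of all genes tested). Anxa1, the phospholipid-binding annexin A1, had 52.8, 80.5 and 63.4 normalized counts among controls, and 15.1, 18.4 and 37.6 after the E3–E12 diet. Its log2 fold change was -1.52 (SE 0.61) (limma, unadjusted p = 0.0432, adjusted p = 0.999). Calr, the surface signal calreticulin, had 3773 ± 579 and 4506 ± 1614 normalized counts in the control and E3–E12 diet groups (SD, n = 3 libraries each). Tub and Lgals3, which encode further TAM ligands, had log2 fold changes of -0.89 and -0.63, and Edil3, an integrin-bridging opsonin, 0.20. Tulp1, the tubby-like TAM ligand, named here after its values were seen, went the other way from Tub at 0.65, and the intervals of all 4 crossed 0.

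The adaptors and Rac activators divided evenly, 8 of 16 above 0 (54.4% of all genes tested) with a median of -0.012. Rac1 and Rac2, the GTPases that drive engulfment, had log2 fold changes of -0.036 and -0.073, with standard errors of 0.75 and 0.76. Elmo2 had 710.2 ± 210.3 and 670.0 ± 127 normalized counts and Dock1 969 ± 100.1 and 958 ± 210.1 in the control and E3–E12 diet groups (SD, n = 3 libraries each), while Dock8 had a log2 fold change of 0.065. Elmo3 had 68.1, 1088 and 91.5 normalized counts among controls, and 46.5, 65.2 and 55.9 after the E3–E12 diet, a gap of a few counts between the groups apart from control replicate 2. Gulp1, an adaptor of engulfment receptors including MEGF10, had a log2 fold change of 1.52 (SE 0.76), with overlapping groups.

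Genes that act on the ligands and receptors, on lipid exposure and on cargo gave no call either. Ggcx, the carboxylase that TAM ligands depend on, and Adam17, which sheds the MERTK ectodomain, had log2 fold changes of 0.017 and 0.047. Xkr8, the scramblase that exposes phosphatidylserine in apoptotic cells, had 251, 264 and 222 normalized counts among controls, and 394, 347 and 383 after the E3–E12 diet. Its log2 fold change was 0.61 (SE 0.52) (exact permutation test, two-sided, p = 0.1, and limma adjusted p = 0.999). The residual SD of Xkr8 itself was 0.113 on the log2 scale, and the moderated standard error was larger than that SD alone would give. Tmem30a, a subunit of the flippases that return the lipid to the inner leaflet, had a log2 fold change of 0.0063. Socs3, a feedback inhibitor of cytokine signalling that TAM receptors induce, had 759 ± 342 and 1140.1 ± 519 normalized counts in the control and E3–E12 diet groups (SD, n = 3 libraries each). Rab5a, which marks early endosomes and phagosomes, had 198, 557 and 318 normalized counts among controls, and 51.0, 196 and 151 after the E3–E12 diet, with a log2 fold change of -1.51 (SE 0.76).

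**Figure D4:**
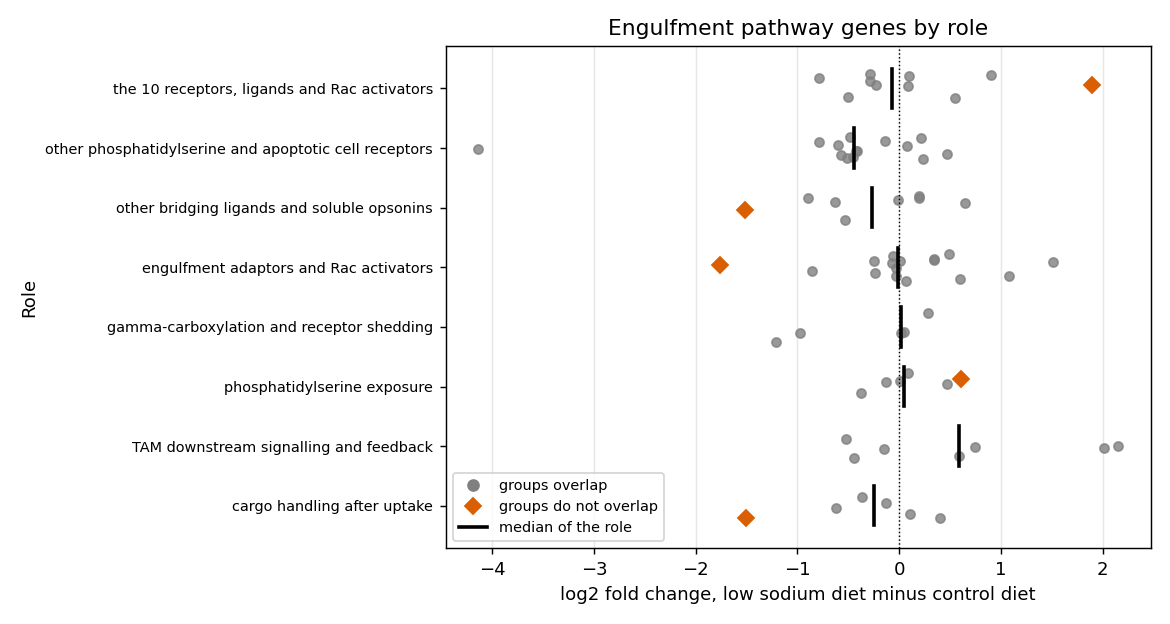
Log2 fold change, low sodium (E3–E12) diet minus control diet, of the 10 genes (top row) and of 62 further engulfment genes by role, with 1 point per gene and a black bar at each median. Orange diamonds mark genes whose groups do not overlap, which are Megf10 and Xkr8 on the positive side and Anxa1, Elmo3 and Rab5a on the negative side.

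The genes whose levels ran most closely with these differed from gene to gene. Over the 6 libraries and among 10148 genes with a mean of at least 100 and no library at 0, the highest Pearson correlations of log2 levels with Mertk were those of Acox3 (0.998), Ccdc117 (0.994) and Zswim6 (0.993). For Axl they were Kdm4a (0.995), Srd5a3 (0.990) and Copg2 (0.987). For Dock2 they were Mtr (0.999), Susd6 (0.996) and Ecscr (0.993), and for Mfge8 they were Grap2 (0.974), 4930511M06Rik (0.974) and Adcy3 (0.971). The points are the same 6 libraries, which differ in cell type markers as described, so these values are descriptions. A correlation above 0.95 was reached by 137 genes with Mertk, 88 with Dock2, 39 with Axl and 13 with Mfge8.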

How the data were processed

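The deposited table holds normalized counts per gene, a signal that the authors made by scaling gene counts. The submitters' processing notes list FastQC, STAR, featureCounts, DESeq2 and GRCm38, without versions. The table's name mentions surrogate variables, and the sources used here do not describe an adjustment for them. RNA was extracted with an RNAqueous-Micro kit, amplified and read as 50 bp pairs in the study's methods, whereas the labels give a Qiagen kit, TruSeq and 75 bp pairs. The labels do not say whether strand was used in counting. Whole reads could not be recovered, so read depth behind each value is unknown and no count test was run. Control and E3–E12 diet groups (3 libraries each) follow the labels.

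Values were taken as log2(normalized count + 1) for the 18007 genes that averaged 10 or more and compared with limma (version 3.58.1, R 4.3.3), two-sided, with Benjamini-Hochberg adjustment over all genes tested and a threshold of 0.1. Single values were also compared by an exact permutation test over the 6 libraries. Of 26789 gene identifiers, 26507 were matched to a symbol. Exon lengths, coordinates and sequences were read from GENCODE M21 (GRCm38). The script was tested on simulated data. Named were all 10 genes, 20 listed pathway genes, the 5 pathway genes with the smallest unadjusted p, and the 3 genes most correlated with each of 4 members. Members and lists were chosen with earlier results of these data known. Pseudocount, filter, scaling, variance model, replicate block and left-out libraries were varied.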

Additional observations from a re-analysis of the deposited data

How the results depend on the processing

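None of the 10 genes or of the 62 pathway genes passed the adjusted threshold under any of the 11 other settings of the fit or with any library left out (smallest adjusted p among the 10, Megf10, 0.745 by limma). Over all genes, array quality weights gave 5 genes past it where the reported fit gave 0, and the number with an unadjusted p under 0.05 was 327 in the reported fit, 156 with a filter at a mean of 100, 491 after quantile normalization, 103 centred on microglial markers, 1205 with array quality weights and 276 to 539 with a library left out. The cause was not tested. The median log2 fold change of all genes was 0.087 as deposited, 0.198 with equal library totals, 0.296 centred on microglial markers and -0.0034 after quantile normalization. That of the 10 genes ran from -0.10 to 0.14 over the settings that tested all 10. With the filter at a mean of 100, which kept 7 of them, it was -0.29. Tyro3 turned negative after quantile normalization (-0.38), with array quality weights (-0.43) and as a ratio of means (-0.31), and Axl as a ratio of means (-0.24). With each library left out in turn, log2 fold changes ranged from -0.58 to 0.19 (Mertk), -0.36 to 0.92 (Axl), -0.76 to 0.87 (Tyro3), -1.71 to 0.23 (Pros1), -0.59 to 0.084 (Elmo1) and -0.55 to 0.17 (Dock2), and the median of the 10 from -0.38 to 0.16. Signs turned without E3–E12 diet replicate 1 for Mertk (0.19), Axl (-0.21), Tyro3 (-0.34), Elmo1 (0.028) and Dock2 (0.17), without control replicate 2 for Tyro3 (-0.76), Pros1 (0.23) and Elmo1 (0.084), and for Axl also without control replicate 1 (-0.29), control replicate 3 (-0.36) or E3–E12 diet replicate 3 (-0.17). Gas6, Mfge8, Cd36 and Megf10 kept their direction in every setting that gave a value. Cd36, Tyro3 and Megf10 have no value under the filter at a mean of 100. The count tests planned for recovered reads (edgeR, DESeq2) were not run.

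Same-numbered libraries deviated together with correlations across genes of 0.26, 0.035 and 0.142. Each E3–E12 diet library correlated best with the control of its own number, while control replicate 2 correlated best with E3–E12 diet replicate 3 (0.087). The numbers were taken as names in the main fit. Whether same-numbered libraries share more than a number was not tested. With the replicate number as a block, 0 genes passed (smallest adjusted p 0.98 by limma) and 468 had an unadjusted p under 0.05, against 327 without it.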
